A study of Homo sapiens with 12 samples.

Results

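The inhibitors of DNA binding, ID1, ID2, ID3 and ID4, were followed across 12 arrays of 5 established human melanoma cell lines. The genes were taken by symbol, with earlier results of these data known, and all 4 are reported whatever their values. They are 4 of the 11963 genes that the arrays name and 4 of the 7178 that were bright enough to be tested. All 8 probe sets annotated to the 4 genes were used, of which 7 carry 1 gene symbol and 1 is annotated to both ID2 and its pseudogene ID2B. All 8 passed the filter on low signal. Malme3M, SkMel-1, SkMel-5, SkMel-19 and SkMel-28 all carry the V600E form of BRAF, which keeps the kinase active and drives MEK and ERK. All were grown in RPMI 1640 with fetal bovine serum and harvested 8 h after DMSO (the solvent control) or 250 nM PLX4032, which is the RAF inhibitor vemurafenib. Malme3M and SkMel-19 also received 1000 nM. Each line gave a single array at each dose, so the lines serve as replicates, and whether lines differ in their response was not tested.

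ID proteins belong to the helix-loop-helix family but lack the basic stretch with which other members of the family bind DNA. They pair with E proteins such as TCF3 and TCF12 and keep them, and the tissue-specific factors that need them, off their E-box sites. High ID levels are known from proliferating and undifferentiated cells, and the genes are classical targets of bone morphogenetic protein (BMP) signalling through SMAD proteins.

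The lines held the transcripts of pigment cells on these arrays. Of 12 melanocyte markers 11 were measured, and MITF, the master regulator of melanocytes, lay between 4899.5 and 7722.2 in signal on every array. TYRP1 and TRPM1 were uneven, with lowest signals of 18.7 and 15.2, under 85.7, the filter level on gene means, on 2 and 3 arrays. Of the 11 markers 3 rose at 250 nM and 0 fell, where 15.2% and 13.1% of all genes tested did. TRPM1 rose by 1.54 on the log2 scale (SE 0.21), or 1.02 when each signal below the filter level was set to it. RAB27A rose by 0.86 (SE 0.08) and MLANA by 0.20 (SE 0.04, limma adjusted p = 0.0100, or 0.0785 without a trend in the prior variance), and their part in the changes of the ID genes was not tested. Markers of other cells were in part dim, with 2 of 10 fibroblast markers (COL1A1 and LUM), 2 of 8 epithelial markers (KRT18 and CDH1) and 1 of 8 blood markers (LCP1) bright enough to be tested. Of the epithelial and blood markers 7 and 6 had a probe set with 1 gene symbol. The highest signals were 5034.2 for CDH1, 2264.2 for LCP1 and 1720.2 for LUM, while the keratinocyte genes KRT5 and KRT14 reached at most 39.3 and 26.3 and the leukocyte gene PTPRC at most 21.3. KRT18 was lower at 250 nM (log2 fold change -0.77, SE 0.15, limma adjusted p = 0.00741), CDH1 was at 0.72 (SE 0.29, limma adjusted p = 0.0907), and their part in the changes of the ID genes was not tested. The median signal of an array lay between 102.5 and 130.4, and the log2 ratio of 3' to 5' signal, a sign of RNA quality, differed between 250 nM and DMSO by -0.01 ± 0.07 (SD, n = 5 lines) for GAPDH and by -0.02 ± 0.08 for ACTB. All 9 transcripts of a list of known ERK outputs fell at 250 nM, where 13.1% of all genes tested did. The largest fall was that of the ERK phosphatase DUSP6 (-5.04, SE 0.57, limma adjusted p = 0.000679), for which 6 of 12 arrays lay under the filter level.

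The promoters of ID1 and ID2 are shown because these genes went opposite ways in 4 of the 5 lines. They are the 250 bases before the annotated start, written 5′ to 3′ along the gene, from RefSeq on GRCh38.p14, where all 4 genes were matched. ID1 lies on chromosome 20 from 31605289 to 31606510, with its promoter at chr20:31605039-31605288 on the plus strand. ID2 lies on chromosome 2 from 8682056 to 8684461, with its promoter at chr2:8681806-8682055 on the plus strand. Capitals mark CCAAT (or ATTGG, the same letters on the other strand) and TATAAA (or TTTATA), the letters of a pair of general promoter motifs.
ID1: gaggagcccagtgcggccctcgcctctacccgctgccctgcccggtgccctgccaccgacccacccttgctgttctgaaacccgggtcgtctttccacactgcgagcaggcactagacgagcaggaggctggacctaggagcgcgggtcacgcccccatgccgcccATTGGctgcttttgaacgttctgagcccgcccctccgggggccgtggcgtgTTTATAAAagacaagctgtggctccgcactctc
ID2: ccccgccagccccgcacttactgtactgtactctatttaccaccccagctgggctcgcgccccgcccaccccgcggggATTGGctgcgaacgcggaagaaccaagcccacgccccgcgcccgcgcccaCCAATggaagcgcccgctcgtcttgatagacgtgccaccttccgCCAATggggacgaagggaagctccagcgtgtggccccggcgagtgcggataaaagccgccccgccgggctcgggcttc
The ID2 promoter held 3 matches to CCAAT, and the ID1 promoter held 1. At least 1 such match was present in 32.01% of 35116 RefSeq promoters of the same length, and 3 or more in 2.927%. TATAAA was matched by 2 overlapping stretches in ID1, from 33 to 26 bases before the start, and by none in ID2; 10.72% of promoters held it. In the promoters of ID4 (chr6:19837120-19837369, plus strand) and ID3 (chr1:23559502-23559751, minus strand), CCAAT was matched 1 and 0 times. The short SMAD box GTCT, to which SMAD proteins of the BMP pathway can bind, was held by 77.48% of promoters. It had 3 matches in ID1, 2 each in ID2 and ID3 and 1 in ID4. The BMP-type SMAD palindrome GGCGCC had 0 matches in each of the 4, and 16.38% of promoters held it. The E-box CANNTG, whose pattern is the same on both strands, occurred 1 time each in ID2 and ID4 and was held by 61.82% of promoters. All motifs were searched on both strands, and a match gives only the letters present.

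The main comparison asked how each ID gene answered 250 nM PLX4032 within 8 h. ID2 rose 3.03-fold and was higher in all 5 lines, while ID1 was lower in 4 lines and higher in SkMel-1. ID3 and ID4 differed from DMSO by less than the spread between lines allowed the test to call. Of the 4 genes 1 passed the test, against 28.3% of all genes tested; 15.2% of genes passed as higher and 13.1% as lower.

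ID2 encodes the family member known for binding the retinoblastoma protein as well as E proteins. Its signal (probe set 201565_s_at) under DMSO was 1607.5 in SkMel-1, 1038.7 in SkMel-5, 976.2 in SkMel-28, 335.0 in SkMel-19 and 1042.9 in Malme3M. At 250 nM it was 5174.1, 2265.3, 3102.2, 1166.8 and 3590.5 in the same order. Every treated array was above its own DMSO array, and 4 of the 5 treated arrays were above every DMSO array, the exception being SkMel-19, the line with the lowest ID2. The log2 changes, on the scale of log2(signal + 12), were 1.68, 1.12, 1.66, 1.76 and 1.77, so that SkMel-5 rose least and the other lines lay close together. The mean was 1.60 (SE 0.10, n = 5 lines, limma adjusted p = 0.000102 over all genes), and by p-value ID2 ranked 4 of the 7178 genes. A rise in all 5 lines by itself was common, since 20.9% of genes tested were higher in every line.

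**Figure D1:**
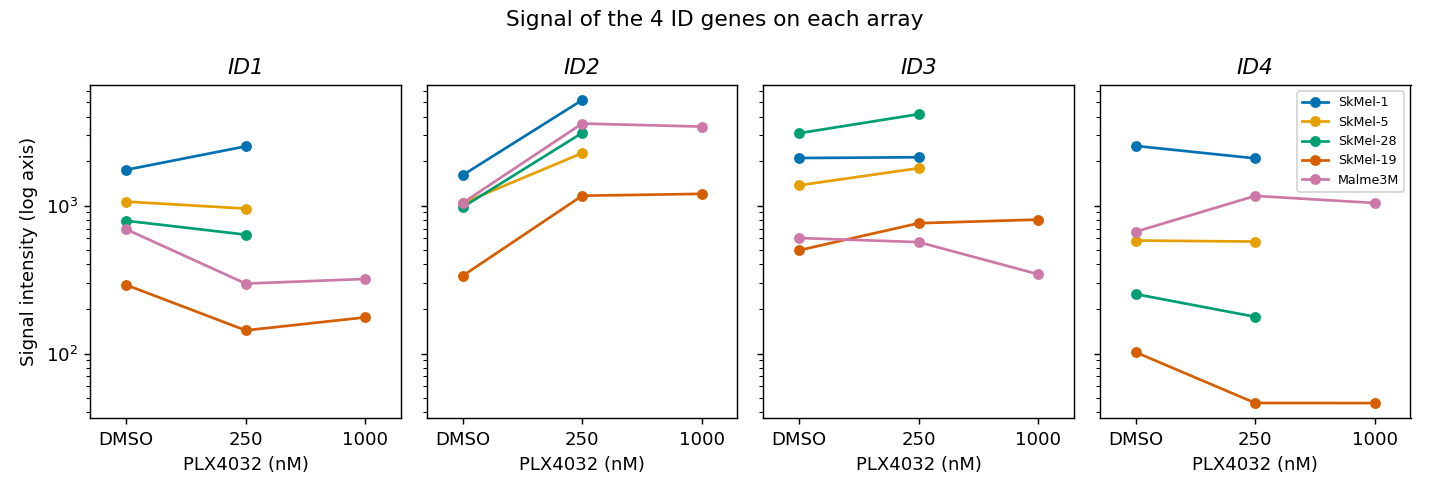
Signal intensity (log axis) of ID1, ID2, ID3 and ID4 under DMSO, 250 nM and 1000 nM PLX4032, with 1 point per array and a line joining the arrays of each cell line. ID2 climbs in every line, from 335.0 to 1607.5 under DMSO to 1166.8 to 5174.1 at 250 nM, whereas ID1, ID3 and ID4 rise in some lines and fall in others.

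ID1, which in melanocytes is known as a repressor of the cell cycle inhibitor gene CDKN2A, had DMSO signals of 1746.6 in SkMel-1, 1065.0 in SkMel-5, 790.3 in SkMel-28, 291.1 in SkMel-19 and 692.3 in Malme3M. At 250 nM these were 2517.4, 955.2, 636.5, 143.4 and 297.1. SkMel-1, already the highest line, was the line in which ID1 was higher after treatment, and the DMSO and treated ranges overlapped. The log2 changes were 0.52, -0.16, -0.31, -0.96 and -1.19, with a mean of -0.42 (SE 0.21, limma adjusted p = 0.171), which did not pass. Without SkMel-1 the mean of the other 4 lines was -0.65 and passed (limma adjusted p = 0.0353), so the call for ID1 rests on whether that line is counted.

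ID3, a close relative of ID1 with overlapping functions in development, was bright in most lines. Its DMSO signals were 2099.0 in SkMel-1, 1372.7 in SkMel-5, 3090.6 in SkMel-28, 499.1 in SkMel-19 and 603.8 in Malme3M, and at 250 nM they were 2124.2, 1791.1, 4155.2, 760.5 and 566.6. The treated arrays were higher in 4 lines, by little in SkMel-1, and lower in Malme3M. The mean log2 change was 0.27 (SE 0.11, limma adjusted p = 0.0912), which did not pass. Without Malme3M it was 0.35 and passed (limma adjusted p = 0.0435).

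ID4 is the family member with the most restricted expression in adult tissues, best known from the nervous system. Its DMSO signals (209291_at) were 2534.0 in SkMel-1, 580.8 in SkMel-5, 252.2 in SkMel-28, 102.0 in SkMel-19 and 666.0 in Malme3M. At 250 nM they were 2089.0, 571.5, 177.1, 46.3 and 1163.7. Malme3M was the line with more ID4 after treatment, and the value in SkMel-19 fell under 85.7, the level of the filter on gene means. The mean log2 change was -0.19 (SE 0.21, limma adjusted p = 0.515), which did not pass, and without SkMel-19 it was 0.0029.

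**Figure D2:**
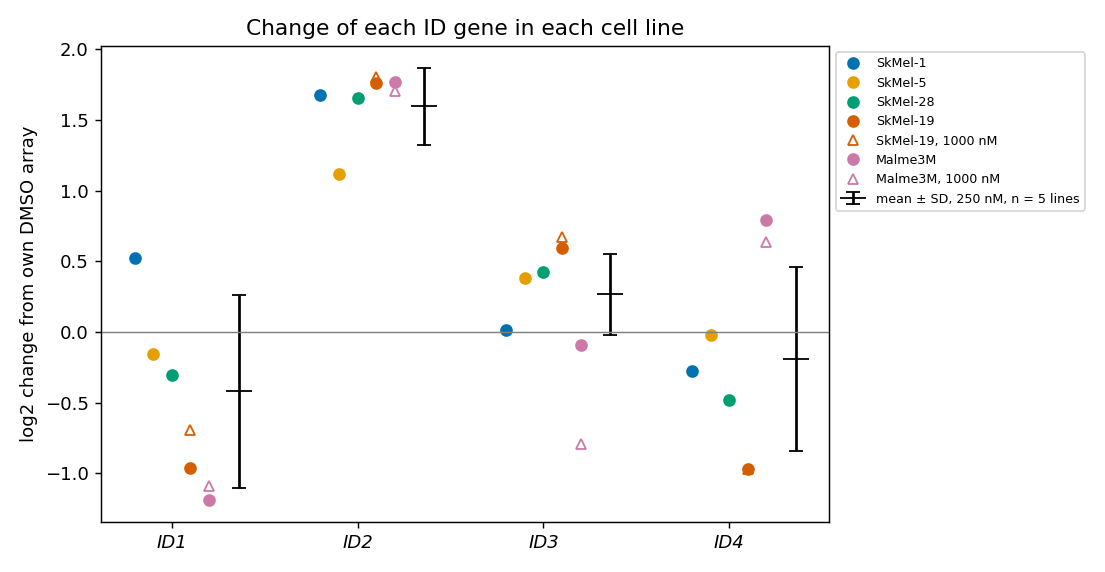
Log2 change of each ID gene from the DMSO array of the same line, with filled circles at 250 nM, open triangles at 1000 nM (SkMel-19 and Malme3M) and bars for the mean ± SD over 5 lines at 250 nM. The 7 ID2 points lie between 1.12 and 1.81, while the points of ID1, ID3 and ID4 fall on both sides of 0.

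On the probe set reported for each gene, the spread of the response between lines differed among the family. The SD of the log2 change over the 5 lines was 0.68 for ID1 and 0.65 for ID4, larger than in 97.8% and 97.2% of tested genes. For ID2 and ID3 it was 0.27 and 0.29, and the median over all genes was 0.22. On the other ID2 probe sets the SD was 0.77 (201566_x_at) and 0.33 (213931_at). On those of ID4 it was 0.51 (209292_at) and 0.31 (209293_x_at). Which gene had the wider spread therefore depends on the probe set. ID2 changed by 2.02 more than ID1 on the log2 scale (SD 0.82, n = 5), by 1.33 more than ID3 (SD 0.44) and by 1.79 more than ID4 (SD 0.73). ID2 was the higher in 5 of 5 lines in each of these 3 differences. Over the 6 pairs of genes the two-sided exact sign-flip test gave p = 0.062 for each of the 3, the smallest that 5 lines allow, and 0.125 after Benjamini-Hochberg adjustment, so no pair could pass. Among the remaining pairs, ID3 changed by a mean of 0.68 more than ID1 over the 5 lines, and was the higher in 4 of them (sign-flip exact p = 0.125, adjusted 0.188).

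Separate probe sets gave the same direction for ID2 in every line, but not the same spread between lines. The second ID2 probe set, 201566_x_at, read 231.6, 222.3, 265.2, 41.6 and 154.8 under DMSO, with the lines in the order used above, and 1689.3, 453.7, 770.9, 198.8 and 1044.0 at 250 nM. Its mean log2 change was 1.99 (SE 0.24, limma adjusted p = 0.000869 over 13329 probe sets), with single lines between 0.99 in SkMel-5 and 2.80 in SkMel-1. The probe set shared with ID2B, 213931_at, was dimmer, at 30.1 to 103.7 under DMSO and 129.0 to 320.3 at 250 nM, and its mean log2 change was 1.43 (SE 0.15, limma adjusted p = 0.000413). A probe set annotated to ID2B alone, which is no member, read between 1.7 and 40.6 over the 12 arrays. All 3 probe sets of ID2 were higher in 5 of 5 lines, and SkMel-5 had the smallest rise on each. The largest rise was in Malme3M on 201565_s_at, in SkMel-1 on 201566_x_at and in SkMel-19 on 213931_at. The test called all 3 as higher, against 11.3% of probe sets tested. Probe sets of 1 gene read the same transcripts and are not replicates of each other.

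The 3 probe sets of ID4 were read one by one. Under DMSO, 209291_at ran from 102.0 to 2534.0, 209293_x_at from 65.7 to 703.5 and 209292_at from 15.0 to 591.5, with SkMel-1 brightest and SkMel-19 dimmest on each. All 3 were higher at 250 nM in Malme3M, by 0.79, 0.31 and 0.84 in the same order, and lower in SkMel-1, SkMel-5 and SkMel-28. In SkMel-19 they did not go one way, with log2 changes of -0.97, 0.08 and -0.51. On 209292_at the signals of SkMel-5, SkMel-28 and SkMel-19 lay under 52.4, the filter level for probe sets, on every array, and it passed the filter through SkMel-1 and Malme3M. The mean log2 changes of 209292_at and 209293_x_at were -0.02 and -0.08 (limma adjusted p = 0.942 and 0.704). ID1 and ID3 had 1 probe set each, so their values rest on those alone.

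**Figure D3:**
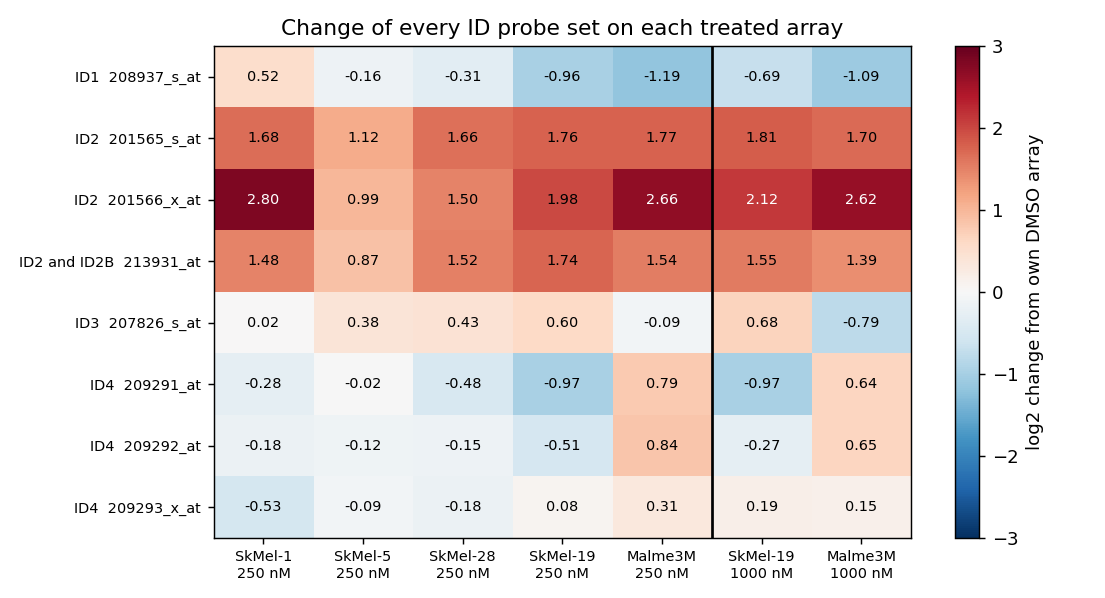
Log2 change of each of the 8 ID probe sets (rows) on each of the 7 treated arrays (columns, with the 1000 nM arrays right of the black line) from the DMSO array of the same line, with the value printed in each cell. The 3 rows of ID2 are above 0 on every array, from 0.87 to 2.80, and Malme3M stands above 0 on the 3 rows of ID4 at both doses.

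The next comparison asked whether 1000 nM changed the ID genes further, in the 2 lines that were given both doses. ID2 stood at 1201.2 in SkMel-19 and 3423.4 in Malme3M at 1000 nM, next to 1166.8 and 3590.5 at 250 nM. ID1 stood at 175.5 and 319.1, next to 143.4 and 297.1. In each line the treated values of a gene lay close together and apart from DMSO, above it for ID2 and below it for ID1.

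Against DMSO, ID2 was 3.37-fold higher at 1000 nM (log2 fold change 1.75, SE 0.10, limma adjusted p = 0.00141), and ID1 was 1.85-fold lower (-0.89, SE 0.15, limma adjusted p = 0.0210). Thus 2 of the 4 genes passed, 1 in each direction, against 11.2% of genes tested in either direction and 5.29% as higher. SkMel-19 and Malme3M are the lines in which ID1 fell most at 250 nM. Over all 5 lines at that dose ID1 did not pass (limma adjusted p = 0.171). At 250 nM in the same 2 lines ID2 was higher by 1.77 (SE 0.10, limma adjusted p = 0.00121) and ID1 lower (-1.08, SE 0.15, limma adjusted p = 0.0138), where 11.3% of genes passed. These comparisons share their DMSO arrays. The error has 2 residual degrees of freedom, pooled over both lines and doses. The prior variance that limma draws from all genes tested raised the total to 6.06. On the level of probe sets all 3 of ID2 passed at 1000 nM, as higher, with log2 fold changes of 1.75, 2.37 and 1.47, against 8.43% of probe sets in either direction.

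ID3 and ID4 parted between SkMel-19 and Malme3M at both doses. ID3 was higher in SkMel-19, by 0.60 at 250 nM and 0.68 at 1000 nM (804.5 in signal), and lower in Malme3M, by -0.09 and -0.79 (343.6). ID4 was lower in SkMel-19, by -0.97 at each dose (46.2 at 1000 nM, under the filter level), and higher in Malme3M, by 0.79 and 0.64 (1042.1). These ID4 values are those of 209291_at. In SkMel-19 the probe set 209293_x_at was higher at both doses, by 0.08 and 0.19, and 209292_at lower, by -0.51 and -0.27, at signals of 15.0 or less. In Malme3M they were higher by 0.31 and 0.15 and by 0.84 and 0.65. The opposite directions of ID4 in the 2 lines therefore do not extend to 209293_x_at. The means over both lines at 1000 nM, -0.06 (SE 0.32) for ID3 and -0.17 (SE 0.42) for ID4, did not pass (limma adjusted p = 0.914 and 0.804). The mean for ID4 turned to 0.21 when each signal below 85.7 was set to 85.7, and to 0.063 when its 3 probe sets were averaged.

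Between the doses none of the 4 genes passed, and limma called 0% of the genes tested, with 75 genes under an unadjusted p of 0.05. The difference of 1000 nM from 250 nM was 0.19 for ID1 (95% interval -0.18 to 0.55) and -0.01 for ID2 (-0.25 to 0.22). For ID3 it was -0.31 (-1.09 to 0.47) and for ID4 -0.08 (-1.10 to 0.94). The interval of ID2 was narrow, and those of ID3 and ID4 reached past 1 log2 unit below 0.

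The lines also differed in how much of each ID transcript they held. This was compared between line means over DMSO and 250 nM in a fit with dose as a term. No line had a repeat array at the same dose, so the error of this fit is the scatter of the dose changes between lines. The variation between repeat cultures of a line was not measured, and the p-values for lines do not rest on it. Differences between lines were common, with 54.4% of all tests of a gene in a pair of lines passing, and the ID genes passed in 8 of 10 pairs (ID1), 7 (ID2), 8 (ID3) and 9 (ID4). On the probe set reported for each gene, SkMel-1 was highest for ID1, ID2 and ID4, SkMel-28 for ID3, and SkMel-19 lowest for ID1, ID2 and ID4. The spread of DMSO levels was widest for ID4, at 22.3-fold between SkMel-1 and SkMel-19, next to 5.80-fold for ID1, 4.67-fold for ID2 and 6.07-fold for ID3.

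In order, ID1 was highest in SkMel-1, then SkMel-5, SkMel-28, Malme3M and SkMel-19. SkMel-5 did not differ from SkMel-28 beyond the error (limma adjusted p = 0.238), nor did SkMel-28 from Malme3M (0.145). SkMel-1 was 9.72-fold above SkMel-19 (log2 difference 3.28, SE 0.34, limma adjusted p = 5.56e-05), and 5.80-fold under DMSO alone. For ID2 the order was SkMel-1, Malme3M, SkMel-28, SkMel-5 and SkMel-19, and the 3 lines in the middle did not differ from each other (limma adjusted p = 0.106 to 0.448). SkMel-1 was 4.53-fold above SkMel-19 (limma adjusted p = 7.62e-06). Under DMSO alone SkMel-5 (1038.7 in signal) lay above SkMel-28 (976.2).

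For ID3 the order was SkMel-28, SkMel-1, SkMel-5, SkMel-19 and Malme3M, while under DMSO alone SkMel-19 (499.1 in signal) lay below Malme3M (603.8). The neighbours SkMel-1 and SkMel-5 (limma adjusted p = 0.0570) and SkMel-19 and Malme3M (0.733) were not separated, and SkMel-28 was 6.02-fold above Malme3M (limma adjusted p = 3.69e-06). ID4 ran from SkMel-1 over Malme3M, SkMel-5 and SkMel-28 to SkMel-19, with Malme3M and SkMel-5 not separated (limma adjusted p = 0.148). SkMel-1 was 28.4-fold above SkMel-19 for ID4 (limma adjusted p = 4.81e-06), on 209291_at, where treated SkMel-19 lay under the filter level. The range over lines on that probe set was 22.3-fold under DMSO, next to 9.21-fold on 209293_x_at. Over the 12 arrays the levels of ID1 and ID4 correlated at r = 0.73 and those of ID3 and ID4 at 0.11, and the arrays of a line share their cells. With the mean of each line taken off, ID1 and ID2 stood at r = -0.64 and ID3 and ID4 at -0.70.

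Genes whose pattern was most like that of an ID gene were named by Pearson's r of log2 signal over the same 12 arrays, as a description. For the level, the closest to ID2 was RAB27A, which encodes a small GTPase of melanosome transport (r = 0.97), followed by ABR (0.96) and MFSD11 (0.93). SNX10 was closest to ID1 (0.95), FEM1C to ID3 (0.97) and the adhesion molecule gene ALCAM to ID4 (0.98). With the mean of each line taken off, so that the change with treatment remains, the closest to ID2 was SOX4, a transcription factor gene (r = 0.996), then CDC42EP4 (0.993) and the hyaluronan synthase gene HAS2 (0.991). These 3 rose in 5 of 5 lines, by 0.90 to 1.51 (SOX4), 1.16 to 1.63 (CDC42EP4) and 1.25 to 1.70 (HAS2) on the log2 scale. They were picked for likeness to ID2, which rose in every line, so this follows largely from the choice. Of all genes tested 20.9% were higher in every line. The DMSO and 250 nM values of SkMel-1, SkMel-5 and SkMel-28 mirror each other once line means are off. Such an r therefore rests on fewer than 12 separate values. With line means off, RMND1 was closest to ID1 (0.96), GSPT2 to ID3 (0.91) and SF3A3 to ID4 (0.96), none of which passed the test at 250 nM.

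The proteins that ID proteins bind were measured in part. The E protein genes TCF3 and TCF12 did not pass at 250 nM, at -0.12 (SE 0.09) and 0.16 (SE 0.07), and TCF4 was under the filter. Of 28 tissue-specific factors 21 had a probe set with 1 gene symbol. On the mean over the arrays 1 of these was bright enough, TWIST1, known from the epithelial to mesenchymal transition (-0.09, SE 0.12). MSC and OLIG2 missed the filter on the mean but reached 970.5 and 430.5 in signal. Among 11 measured genes of other ID partners and of ID protein turnover, 0 rose and 2 fell, against 15.2% and 13.1% of all genes tested. These were ELK3, an ETS factor of the ternary complex class (-1.68, SE 0.17, limma adjusted p = 0.000400, or -1.05 with the mean of its probe sets), and USP1, the deubiquitinase that stabilises ID proteins (-0.31, SE 0.06, limma adjusted p = 0.00931). RB1, which encodes the retinoblastoma protein, was at -0.03 (SE 0.09). The median of the 11 was -0.03, beside 0.03 over all genes tested.

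Of 5 measured HES, HEY and BHLHE repressors, helix-loop-helix factors that bind DNA themselves, 3 fell and 1 rose, with a median of -0.98, where 13.1% and 15.2% of all genes did. HES1, the Notch target, fell (-2.65, SE 0.38, limma adjusted p = 0.00187, with 4 of 12 arrays under the filter level), and so did HEY1 (-1.70, SE 0.30) and BHLHE40 (-0.98, SE 0.16). With the mean of all probe sets of a gene HES1 was at -1.59 and HEY1 at -1.78, so their order depends on the probe set. BHLHE41, the close relative of BHLHE40, rose (1.05, SE 0.09, limma adjusted p = 0.000277). Of 8 measured leucine zipper members 3 rose and 1 fell, where 28.3% of all genes passed in either direction. TFEB, a regulator of lysosomal genes, rose by 1.26 (SE 0.21, with 4 of 12 arrays under the filter level), MLX fell (-0.46, SE 0.07), and MITF was at 0.11 (SE 0.07, limma adjusted p = 0.247). USF2 rose by 0.38 (SE 0.11, limma adjusted p = 0.0380), a call lost without SkMel-28 (0.34), SkMel-19 (0.28) or Malme3M (0.37).

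The BMP pathway was followed from ligand to feedback inhibitor. Of 14 ligands 13 had a probe set with 1 gene symbol, and only BMP7 was bright enough to be tested, at 0.30 (SE 0.12, limma adjusted p = 0.0987). Of 5 measured receptors and co-receptors 1 fell, where 13.1% of all genes did; this was the type I receptor gene ACVR1 (-0.53, SE 0.12, limma adjusted p = 0.0130, lower in 4 of 5 lines). None of the 3 measured SMAD genes of the pathway passed, and the shared partner SMAD4 was at 0.14 (SE 0.08, limma adjusted p = 0.246). None of 5 secreted or membrane antagonists passed, and the activin and BMP binder FST was at 0.53 (SE 0.20, limma adjusted p = 0.0710). FST passed at 1000 nM (1.24, SE 0.19, limma adjusted p = 0.0159), with 6 of 12 arrays under the filter level.

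Among 4 measured inhibitory SMAD and corepressor genes 1 rose and 2 fell, where 28.3% of all genes passed in either direction. SMAD6, which blocks BMP signals in particular and is itself a BMP target, rose by 1.30 (SE 0.16, limma adjusted p = 0.000895) in 5 of 5 lines, with 4 of 12 arrays under the filter level. With each signal below that level set to it, the rise of SMAD6 was 0.57 (SE 0.18, limma adjusted p = 0.0451). SMAD7, which blocks both BMP and TGF-beta signals, fell (-0.53, SE 0.15, limma adjusted p = 0.0273), and SMURF2, a ubiquitin ligase that works with it, fell as well (-0.38, SE 0.12, limma adjusted p = 0.0419). The call for SMAD7 was lost without SkMel-28 (-0.43), SkMel-19 (-0.47) or Malme3M (-0.49), and that for SMURF2 without SkMel-1 (-0.28), SkMel-28 (-0.38), SkMel-19 (-0.34) or Malme3M (-0.44). At 1000 nM SMAD6 was at 1.33 (SE 0.16) and SMAD7 at -1.03 (SE 0.15), and both passed (limma adjusted p = 0.00904 and 0.0149).

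**Figure D4:**
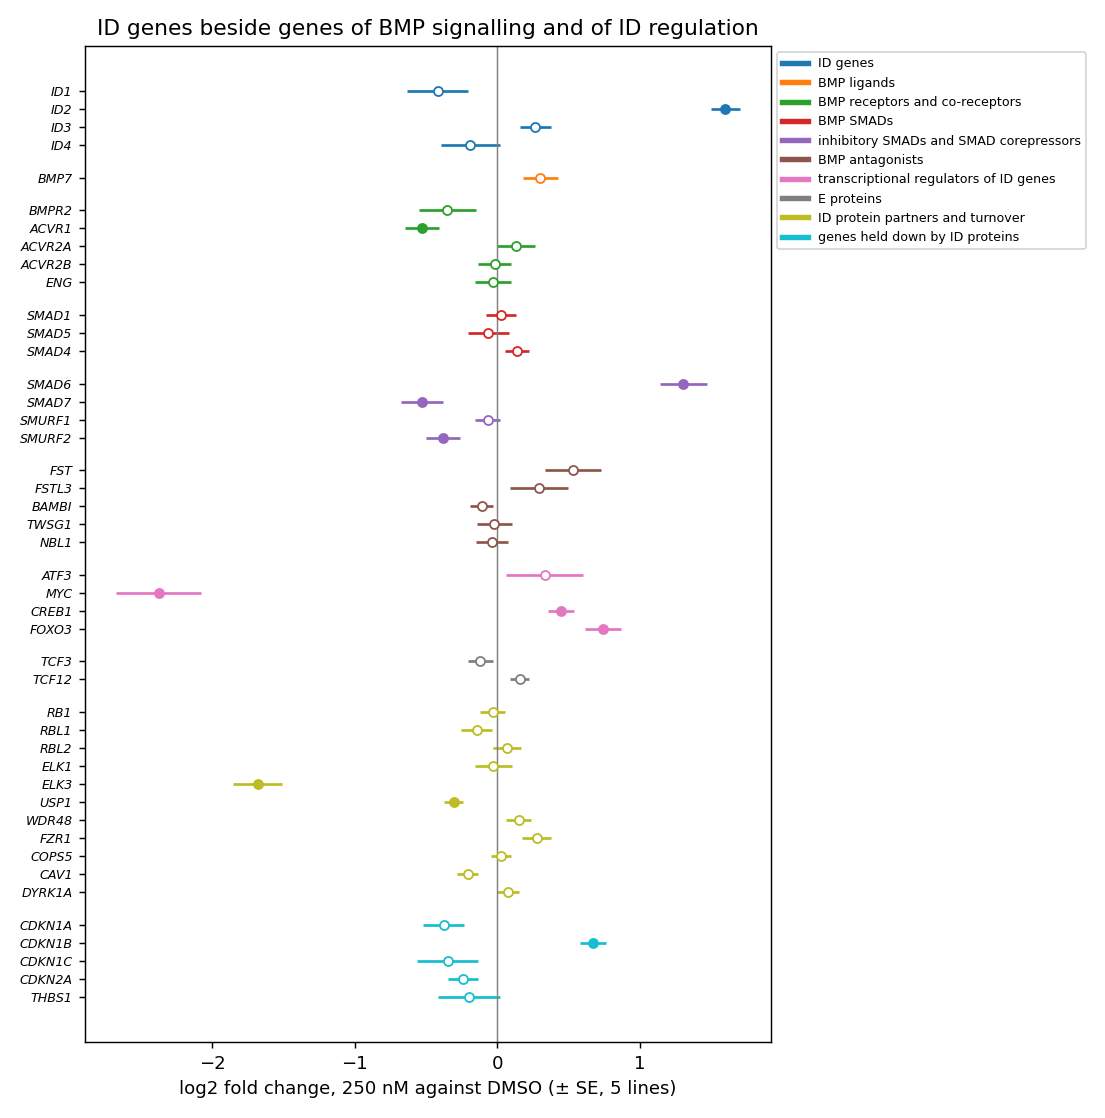
Log2 fold change at 250 nM against DMSO (points, with bars for the SE, n = 5 lines) of the ID genes and of the measured genes of BMP signalling, ID regulation, ID partners and ID targets, 1 colour per group. Filled points passed at a limma adjusted p under 0.05 and open points did not; ID2 lies at 1.60 and MYC at -2.37, and SMAD6 at 1.30, or 0.57 with signals below the filter level set to it.

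Of 4 measured transcription factors known to act on ID genes, 2 rose and 1 fell, where 28.3% of all genes passed. MYC, which can activate ID2, fell (-2.37, SE 0.30, limma adjusted p = 0.000968), in all 5 lines. FOXO3 rose by 0.74 (SE 0.13, limma adjusted p = 0.00397) and CREB1 by 0.45 (SE 0.09, limma adjusted p = 0.00802), each in 5 of 5 lines. ATF3, a repressor of ID1, was at 0.33 (SE 0.27), higher in 4 of 5 lines. EGR1, an activator of ID1 and ID3, was under the filter with signals from 10.5 to 750.7. In a fit without the filter, over 11963 genes, it was lower in 5 of 5 lines (-2.58, SE 0.40, limma adjusted p = 0.00506).

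Of 5 measured genes that ID proteins are known to hold down, 1 rose, where 15.2% of all genes did; this was CDKN1B, which encodes the cyclin-dependent kinase inhibitor p27 (0.67, SE 0.09, limma adjusted p = 0.00141). CDKN2A, which encodes p16, was at -0.24 (SE 0.11, limma adjusted p = 0.119), with 5 of 12 arrays under the filter level. CDKN1A, which encodes p21, was at -0.37 (SE 0.14, limma adjusted p = 0.0798), and the median of the 5 genes was -0.24.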

How the data were processed

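Values are 1 intensity per probe set and array for 22277 probe sets, deposited by the authors and made with GCOS per the submitters' processing notes, version not stated. For the probe summary and the background correction, a method was not given in the sources used here. Biotin-labelled cRNA was made from total RNA, per the labels' protocols. Values were used as deposited, as log2(value + 12), 12 being about the 20th percentile of all values.

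Of 22215 probe sets that are no controls, 19064 carry 1 gene symbol, 1043 several and 2108 none. Each gene was represented by its brightest probe set, and genes whose mean reached the 40th percentile (log2 6.61, a signal of 85.7) were tested; the fit per probe set used its own 40th percentile (6.01). limma 3.58.1 in R 4.3.3 was run with lmFit and eBayes, a trend in the prior variance and cell line as a block, with Benjamini-Hochberg adjustment over all genes or probe sets tested and a threshold of 0.05. The scripts were tested on simulated data.

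The block follows the cell line in the labels: after subtraction of group means, the correlation was 0.898 to 0.931 within a line and -0.341 to -0.135 across lines. The number of arrays limits the precision. The limma p-values for dose rest on the spread between lines together with a prior variance drawn from all genes tested. Those for differences between lines rest on the same error, not on repeat cultures of a line. In the 5 lines at 250 nM there were 4 residual and 9.18 total degrees of freedom. Named were the ID genes, from each list at most 3 members that passed with the largest change, or else the member with the smallest p, EGR1, MYC, ATF3, MITF, DUSP6, SMAD6 and SMAD7, and the 3 genes closest to each ID gene in pattern; other list members given were chosen after their values were seen. The members and 18 lists were chosen with earlier results of these data known. Alternatives tried were the pseudocount, the filter, the scaling, the mean of probe sets, the fit without the block or the trend, low signals raised and each line left out. Sequences are RefSeq's. Figures were drawn with matplotlib 3.10.9.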

Additional observations from a re-analysis of the deposited data

Results flagged for a closer look

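In 24 groups of 5 values examined for a single value far from the others, 3 were found, where chance alone gives about 1 in 20 groups. The rise of ID2 (201565_s_at) at 250 nM was 1.12 in SkMel-5, with the nearest other line at 1.66. The change of ID4 on 209292_at was 0.84 in Malme3M, with the nearest other line at -0.12. On 213931_at, shared by ID2 and ID2B, the DMSO level of SkMel-19 was 5.40 on the log2 scale, with the nearest other line at 6.56.

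On 3 probe sets, in the 2 lines given both doses, every treated array of Malme3M moved one way and every treated array of SkMel-19 the other. Malme3M minus SkMel-19, as the mean log2 change over both doses, was -1.08 for ID3, 1.68 for ID4 on 209291_at and 1.13 for ID4 on 209292_at. On the third ID4 probe set, 209293_x_at, both lines were higher at both doses, by 0.08 and 0.19 in SkMel-19 and by 0.31 and 0.15 in Malme3M. On 209292_at SkMel-19 read 15.0, 7.0 and 10.4, under the filter level of 52.4 for probe sets, so the size of 1.13 rests on the pseudocount. These differences were not tested.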

How the results depend on the processing

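With the settings tried, ID2 stayed past the threshold at 250 nM except without the replicate block, where the log2 change was 1.60 with a limma adjusted p of 0.392 and 13 genes passed in place of 2029. Without the block 0 genes passed at 1000 nM, and ID1 (-0.89) and ID2 (1.75) did not (limma adjusted p = 1.00 for both). The number of genes passing at 1000 nM, 803, was 445 with no filter, 530 with no trend and 458 with low signals raised. Means of ID4 near 0 changed sign. At 1000 nM ID4 was 0.063 with the mean of probe sets and 0.21 with low signals raised. At 250 nM in the same 2 lines it was 0.051 with a pseudocount of 50, 0.092 with the mean of probe sets and 0.29 with low signals raised. With the mean of probe sets SMAD4 at 250 nM was -0.020 and ID2 between the doses 0.020, neither past the threshold before or after. Without the filter SMAD7, USF2 and SMURF2 did not pass at 250 nM (limma adjusted p = 0.0567, 0.0614 and 0.0701). With each line left out in turn, the log2 change at 250 nM ranged from -0.65 to -0.23 for ID1, from 0.18 to 0.35 for ID3, from -0.44 to 0.0029 for ID4 and from -0.18 to 0.0099 for TWIST1. ID4 minus ID1 ranged from -0.21 to 0.48, and the number of genes passing from 1288 (without SkMel-19) to 1836; without Malme3M it was 1339. In these cases the cause was not tested, beyond fewer arrays when a line is left out. With 1 line at 1000 nM there is no test.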
